A study of Raphidocelis subcapitata with 270 samples.

Results

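The response of a green alga to hydrochlorothiazide was followed in 24 of the 270 libraries of the series. These were the 21 libraries at 7 labelled levels of the drug, D1 to D7 with 3 libraries each, and the 3 libraries of dimethyl sulfoxide (DMSO), the solvent control, that belong to the same table. The libraries were chosen by their labels and not by any measured value. All other groups used below are named where they enter.

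Hydrochlorothiazide is a thiazide diuretic, a medicine that lowers blood pressure by blocking the sodium-chloride cotransporter of the kidney tubule. It carries a sulfonamide group and is a weak inhibitor of some carbonic anhydrases, the enzymes that interconvert carbon dioxide and bicarbonate and that green algae use to supply carbon to photosynthesis. Raphidocelis subcapitata is a unicellular freshwater green alga and a standard organism of aquatic toxicity tests.

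The study exposed exponentially growing cultures for 24 h in 96-well plates to 1 of 12 chemicals or to DMSO, and polyadenylated RNA was counted by sequencing a tag near the 3′ end of each transcript. A pair of chemicals shared each of 6 sets of 3 DMSO libraries, and the partner of hydrochlorothiazide was 4-chlorophenyl methyl sulfone. The series text describes dilution series with nominal concentrations that typically spanned 66.7 to 0.021 µM, but the labels give neither the concentration of a level nor the end of the series at which D1 lies. The levels are therefore treated as named groups without an order. No strain, genotype or second agent is labelled. All groups share the labelled growth stage, the exposure of 24 h, a temperature of 24 °C and light of 4300 lux.

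The 24 libraries held between 831298 and 1188633 counts each, with a median of 977605, over 13429 genes, of which 13154 had a count and 9052 were tested. The files do not pair the gene identifiers with names or products, so genes are given by identifier and no pathway could be described. Whether libraries A to C of a group are separate cultures is not labelled, and the spread that p-values are based on may therefore be technical. The values are shares of a library, in which fewer cells and less RNA per cell cannot be told apart. DMSO replicate A lay farthest from the 18 libraries of D2 to D7, at a mean distance of 0.549 on the log2 CPM scale (CPM, counts scaled to library size) against 0.504 and 0.483 for DMSO B and C and 0.463 to 0.534 for the treated libraries. For that reason most counts that rest on DMSO are also given without it. A named gene was followed without it only in the comparison that named it, and losses there are given. Other calls against DMSO were not repeated without it. Among these are the D1 calls of Rsub_09628, Rsub_05922, Rsub_03380, Rsub_11220 and Rsub_05085. Replicate A also stood apart in treated groups. The chi-square per degree of freedom between libraries of a group was 2.68 (AB), 3.13 (AC) and 2.07 (BC) in DMSO. It was 2.55, 2.84 and 2.04 at D1 and 2.72, 3.11 and 1.97 at D4, but 2.19, 2.99 and 2.20 at D7. Leaving out DMSO replicate A keeps the treated A libraries, so the letters are then unbalanced between the sides.

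Gene expression at D1 differed from DMSO in 133 of 9052 genes, which is 1.47%, at an adjusted p under 0.05 in edgeR's quasi-likelihood test. A gene past that threshold is said below to be called. Of the 133 genes, 58 were higher (0.641%) and 75 lower (0.829%) at D1. Most changes were small: 13 of the higher and 9 of the lower genes passed 2-fold, and the median absolute log2 fold change was 0.67 among called genes against 0.23 over all genes. Called genes were abundant, with a median of 214 CPM for the higher and also for the lower genes against 39.9 CPM over all genes tested. In 128 of the 133 genes the 3 D1 libraries did not overlap the 3 DMSO libraries, as was the case for 1652 of all 9052 genes, or 18.3%. The genes named below for D1 against DMSO were also called in the test over all 7 levels, which left out 7 genes with a larger rise and 2 with a larger fall, among them Rsub_06745 (adjusted p = 0.0538 over all levels) and Rsub_05085 (0.137).

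At D3, 59 genes were called (0.652%), 37 of them higher than in DMSO (0.409%). The numbers were 36 at D4 (0.398%), of which 23 were higher (0.254%), and 27 at D6 (0.298%), of which 24 were higher (0.265%). D5 had 21 genes (0.232%), 17 of them higher (0.188%), and D2 had 18 (0.199%), 8 of them higher (0.0884%). At D7 edgeR called 0 genes (0%) and DESeq2 also called 0, while the unadjusted p was under 0.05 for 480 genes, compared with 1148 at D1. The number at D7 was 25 with the replicate letter as a block and 14 with no filter on low counts. Over all 7 levels at once 82 genes differed (0.906%). These 7 comparisons share their DMSO libraries and are therefore not independent of each other.

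With DMSO replicate A left out there were 47 called genes at D1, 1 at D2, 10 at D3, 0 at D4, 0 at D5 and 1 at D6. Without DMSO replicate B the numbers were 73, 9, 31, 3, 6 and 8, and without C the number at D5 was 33. Treated libraries mattered too. At D1 the number was 63 without D1 replicate B and 59 without C. Without replicate B of the level itself 0 genes were called at D2, 4 at D3, 10 at D4, 0 at D5 and 0 at D6, and without replicate C the numbers were 0, 21, 2, 1 and 7. Without D5 replicate A 47 genes were called at D5, and without D7 replicate A 1 gene was called at D7. D1 was the level with the highest number under each of the 3 DMSO exclusions. With all libraries kept and the replicate letter as a block in the model, 386 genes were called at D1. The 82 genes over all levels became 42 without DMSO replicate A and 47 without B. Leaving out a D1 library gave 53 (A), 24 (B) or 42 genes (C), and leaving out replicate A of D5 or of D6 gave 140 or 131.

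**Figure D1:**
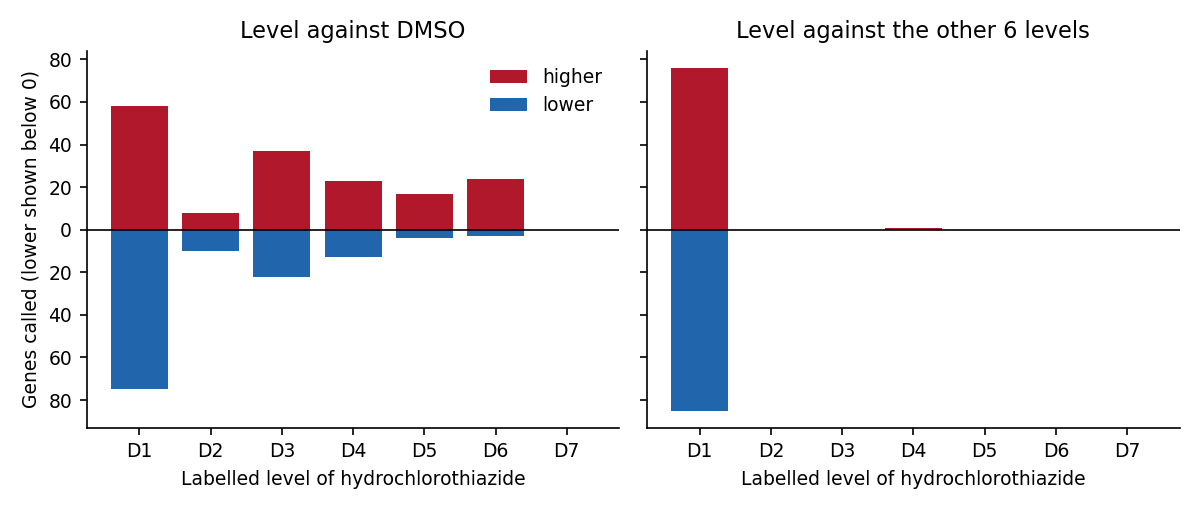
Number of genes called at each labelled level of hydrochlorothiazide, higher above the zero line and lower below it, against the 3 DMSO libraries (left) and against the mean of the other 6 levels (right), from edgeR's quasi-likelihood test. D1 has 58 higher and 75 lower genes on the left and 76 higher and 85 lower genes on the right, where the other levels have 0 or 1.

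Whether the levels differ among themselves can be asked without comparing them with DMSO. D1 differed from the mean of D2 to D7 in 161 genes (1.78%), 76 higher (0.840%) and 85 lower (0.939%), with 7 and 10 of them past 2-fold. This number was 164 without DMSO replicate A, 156 without B and 162 without C. It was 65, 58 and 59 without D1 replicate A, B and C. EdgeR called 0 genes (0%) for D2, D3, D5, D6 and D7, each against the mean of the other 6 levels, comparisons that were added after the data were seen. In these 5 comparisons the unadjusted p was under 0.05 for 376 to 550 genes, and DESeq2 gave 0 calls except for 1 at D7. With the replicate letter as a block there were 17 calls at D2, 2 at D3 and 11 at D7. With no filter on low counts there were 2 at D2, 2 at D3, 2 at D6 and 3 at D7. D4 had 1 gene called (0.0110%), which was Rsub_12849, described below. In a test of D1 to D7 at once 46 genes differed (0.508%), a number that was 14, 7 and 13 without D1 replicate A, B and C, 28 without D6 replicate B, 28 without D6 C, 22 without D7 B and 30 without DMSO replicate B.

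In 36 of the 76 genes higher at D1 all 3 D1 libraries lay above all 18 libraries of D2 to D7, as in 62 of all genes, or 0.685% of those tested. In 39 of the 85 lower genes all 3 lay below, as in 50 of all genes, or 0.552%. The median difference of the 76 genes from the mean of D2 to D7 was 0.79, 0.57 and 0.50 log2 CPM in D1 replicates A, B and C. It was 0.32, 0.10 and 0.12 in the D2 libraries, and between -0.17 and 0.17 in those of D3 to D7. For the 85 lower genes the medians were -0.41, -0.49 and -0.56 at D1, -0.13, -0.16 and -0.22 in the D2 libraries, and -0.07 to 0.16 in those of D3 to D7. The D2 libraries lay below those of D3 to D7 for the lower genes, while for the higher genes D2 replicates B and C lay inside their range. These values come from the libraries that chose the genes and are a description, with no test.

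The DMSO libraries are no side of that comparison, though the low-count filter, the library scaling and the shared dispersion used them too. Their medians were 0.06, 0.02 and 0.05 for the 76 genes and 0.03, 0.08 and -0.03 for the 85 genes, inside the range of the D3 to D7 libraries. Over all genes the corresponding medians were 0.01 to 0.02. For the genes that set D1 apart, the DMSO libraries sat with D3 to D7 and not with D1. The genes were chosen for D1 lying apart from D2 to D7, so this too is a description, with no test.

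**Figure D2:**
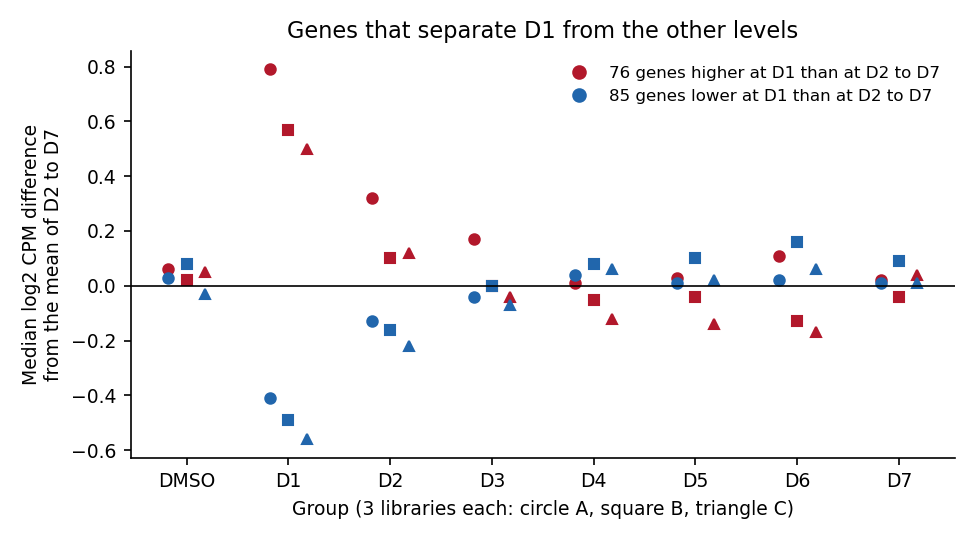
Median difference of each library from the mean of D2 to D7, in log2 CPM, over the 76 genes called higher (red) and the 85 called lower (blue) at D1 than at D2 to D7; each point is 1 library, with its letter given by the marker shape. The D1 libraries lie at 0.50 to 0.79 and -0.56 to -0.41, the D2 libraries at 0.10 to 0.32 and -0.22 to -0.13, and the DMSO libraries at -0.03 to 0.08.

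Among the falling genes Rsub_12849 had the smallest adjusted p of the named genes. Its level was 73.6, 47.2 and 45.2 CPM in D1 replicates A, B and C and 186, 216 and 133 CPM in the DMSO libraries. In the 18 libraries of D2 to D7 it ran from 129 to 265 CPM with a median of 211. All 3 D1 libraries were lower than all 21 others. The log2 fold change at D1 was −1.70 ± 0.183 (SE, n = 3 and 3, adjusted p = 6.19e-08, edgeR's quasi-likelihood test) against DMSO and −1.96 ± 0.154 (adjusted p = 2.17e-12) against D2 to D7. Its call at D1 against DMSO, like that of Rsub_09261, was kept in all 11 alternatives, the exclusion of DMSO replicate A included.

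The mean level of Rsub_12849 was 149 ± 18.6 CPM at D2, 201 ± 5.66 at D3, 255 ± 3.48 at D4, 225 ± 27.4 at D5, 235 ± 42.5 at D6 and 226 ± 21.8 at D7 (SD, n = 3 each), beside 178 ± 42.2 in DMSO. None of the 6 differed from DMSO past the threshold. The gene was also the 1 called for D4 against the other 6 levels, at a log2 difference of 0.63 ± 0.117 (adjusted p = 0.0202), where D4 held 253, 259 and 254 CPM. The call was lost without D4 replicate A, B or C. The D1 libraries are part of the mean on the other side of that comparison, and the libraries of D5 to D7, at 186 to 265 CPM, overlapped those of D4.

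Rsub_09261 fell from 43.0, 49.8 and 45.5 CPM in DMSO to 11.2, 6.88 and 10.4 CPM at D1, where the libraries held 10, 7 and 12 counts. The D2 to D7 libraries ran from 21.1 to 82.3 CPM with a median of 54.4, so the D1 libraries lay below all others. The log2 fold change was −2.27 ± 0.394 (adjusted p = 0.000765) against DMSO and −2.36 ± 0.332 (adjusted p = 1.13e-05) against D2 to D7. At D2 the libraries held 33.4, 26.1 and 36.9 CPM, below each DMSO library, but the change of −0.53 ± 0.331 had an adjusted p of 0.692. At D3, D4 and D6 replicate A held 26.0, 21.1 and 31.6 CPM and replicates B and C held 51.9 to 82.3 CPM.

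Of the rising genes Rsub_09628 held 207, 154 and 135 CPM at D1, higher than the 18 libraries of D2 to D7, which ran from 17.8 to 118 CPM with a median of 59.5. DMSO held 80.8, 76.8 and 62.8 CPM. The difference from D2 to D7 was 1.53 ± 0.215 on the log2 scale (adjusted p = 1.13e-05) and that from DMSO was 1.17 ± 0.307 (adjusted p = 0.0367). Replicate A was the highest library of its group at each of the 7 levels and in DMSO for this gene.

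Rsub_11015 held 26.8, 35.4 and 30.4 CPM at D1, from 24, 36 and 35 counts. The D2 to D7 libraries ran from 6.34 to 21.5 CPM with a median of 13.9, and the DMSO libraries held 20, 18 and 13 counts, or 17.4 ± 4.90 CPM (SD, n = 3). D1 was higher than every other library, by 1.24 ± 0.252 on the log2 scale against D2 to D7 (adjusted p = 0.00275), but without D1 replicate B the adjusted p was 0.0655 at a difference of 1.13. Against DMSO the change of 0.83 ± 0.346 had an adjusted p of 0.268.

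Rsub_05674 held 93.7, 63.9 and 85.1 CPM at D1 against 19.9, 40.0 and 40.1 CPM in DMSO, with no overlap. Its rise of 1.27 ± 0.256 (adjusted p = 0.00377) had an adjusted p of 0.0721 and a size of 1.01 without DMSO replicate A, the lowest of the 3. The D2 to D7 libraries ran from 33.1 to 66.4 CPM, reaching into the D1 range, and D1 was higher than their mean by 0.81 ± 0.178 (adjusted p = 0.00643).

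**Figure D3:**
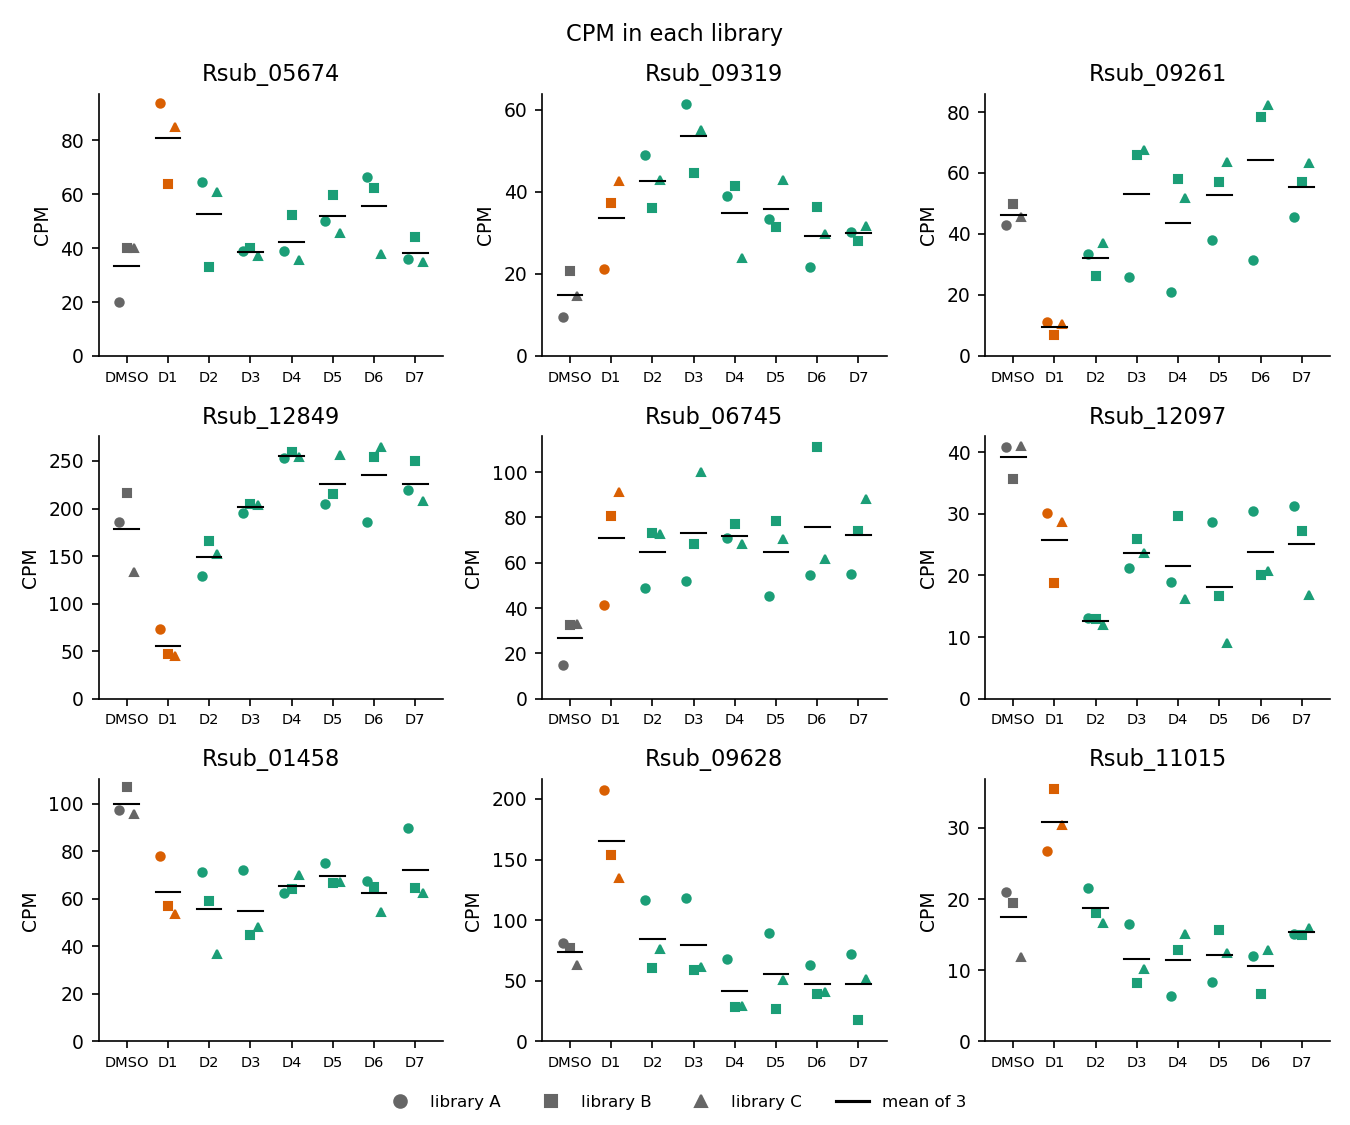
Level in CPM (linear axis from 0) of 9 genes in each of the 24 libraries, by group; circles, squares and triangles are replicates A, B and C, lines are means of 3, D1 is orange, D2 to D7 green and DMSO grey. Rsub_12849 and Rsub_09261 are lowest and Rsub_09628 and Rsub_11015 highest at D1, while Rsub_06745 and Rsub_09319 are higher and Rsub_12097 and Rsub_01458 lower at all 7 levels than in DMSO.

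A shift shared by the levels was asked for by setting the mean of the 7 levels against DMSO. It was called in 94 genes (1.04%), 49 higher (0.541%) and 45 lower (0.497%), with 7 of the higher and 0 of the lower genes past 2-fold. All 21 treated libraries lay above all 3 DMSO libraries in 23 of the 49 genes, as in 34 of all genes (0.376%), and below them in 9 of the 45, as in 20 of all genes (0.221%). This comparison rests on the 3 DMSO libraries at every level. Without DMSO replicate A 5 genes were called, without B 38, and without D2 replicate A 146. With all libraries kept and the replicate letter as a block, 343 genes were called.

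Rsub_06745 had the largest rise in that comparison among the called genes with no overlap and a mean of at least 10 counts. It held 14.7, 32.4 and 32.8 CPM in the DMSO libraries, and between 41.3 and 111 CPM in the 21 treated libraries with a median of 70.8. Every treated library was higher than every DMSO library, and the level means differed little, from 64.6 to 75.7 CPM. The difference was 1.40 ± 0.250 on the log2 scale (adjusted p = 0.0018), and 1.11 with an adjusted p of 0.138 without DMSO replicate A. D1 and D2 to D7 differed by 0.02 ± 0.205 (adjusted p = 0.983).

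Rsub_09319 held 9.44, 20.6 and 14.6 CPM in DMSO and 21.2, 37.3 and 42.6 CPM at D1. Over all treated libraries it ran from 21.2 to 61.4 CPM with a median of 36.4, again above each DMSO library. Its level means were highest at D3, with 53.7 ± 8.41 CPM, and lowest at D6, with 29.3 ± 7.32 CPM (SD, n = 3). The rise was 1.30 ± 0.255 over the mean of the levels (adjusted p = 0.00368) and 1.20 ± 0.316 at D1 (adjusted p = 0.037). Without DMSO replicate A the adjusted p was 0.201 for the mean of the levels, and at D1 it was 0.246. At D1 it was also 0.147 without D1 replicate B, 0.278 without D1 C and 0.101 without DMSO C.

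Of the lower genes, Rsub_12097 held 40.9, 35.7 and 41.0 CPM in DMSO, and 9.10 to 31.2 CPM in the treated libraries with a median of 20.8. Its difference was −0.90 ± 0.228 (adjusted p = 0.0338). At D2, with 13.1, 13.0 and 11.9 CPM from 10 to 13 counts, it was lowest on average and the change was −1.62 ± 0.350 (adjusted p = 0.0259), a call lost without D2 replicate B or C, where 0 genes were called at D2. Rsub_01458 held 97.6, 107 and 95.6 CPM in DMSO and 36.9 to 89.9 CPM in the treated libraries, a difference of −0.67 ± 0.150 (adjusted p = 0.0133). Both genes missed the threshold without DMSO replicate A (adjusted p = 0.313 and 0.158) and without B (0.104 and 0.134), at changes between −0.97 and −0.62, and Rsub_12097 also without C (0.146).

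The partner chemical 4-chlorophenyl methyl sulfone has its own 21 treated libraries at levels also named D1 to D7, so both chemicals can be compared directly without DMSO. Over the mean of the levels 2434 of 9312 genes differed (26.1%), 1219 higher (13.1%) and 1215 lower (13.0%) with hydrochlorothiazide, and 23 and 11 of them passed 2-fold. The median absolute log2 difference was 0.32 among the called genes and 0.15 over all genes. At D1 alone, with 3 libraries of each chemical in place of 21, 36 genes differed (0.387%), 15 higher (0.161%) and 21 lower (0.226%). This number was 8 without D1 replicate A of hydrochlorothiazide and 12 without D1 B or C of the sulfone. The median absolute log2 difference over all genes was 0.22 at D1. The numbers of called genes rest on different numbers of libraries, so the lower one does not show smaller differences at D1. The labels do not give the concentrations behind the levels or the plate of a library, so the chemical, its concentrations and its place on the plates cannot be told apart here.

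Rsub_12849 was lower with hydrochlorothiazide than with the sulfone at D1, by a log2 difference of −1.14 ± 0.215 (adjusted p = 0.00163), and higher over the mean of the levels, by 0.43 ± 0.0721 (adjusted p = 5.19e-06). Rsub_06745 differed by −0.34 ± 0.0943 over the mean of the levels (adjusted p = 0.00506), and Rsub_09261 was higher there by 0.55 ± 0.176 (adjusted p = 0.0142). The other 6 named genes did not pass the threshold in either comparison. The difference for Rsub_09319 was −0.22 (adjusted p = 0.0903) and that for Rsub_09628 at D1 was 1.14 ± 0.311 (adjusted p = 0.0772).

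The 133 genes called at D1 were then followed at D1 of the 10 chemicals of the other 5 control sets, each against its own DMSO libraries, in 1 fit of the D1 and DMSO libraries of all chemicals (9649 genes tested). None of those libraries entered the choice of the genes. Their fold change had the sign seen with hydrochlorothiazide in 96 to 129 of the 133 genes, depending on the chemical. The share was 97.0% for cetirizine hydrochloride, 94.0% for gabapentin, 92.5% for metribuzin-DA and 90.2% for 1(2H)-phthalazinone, where over all genes 59.2%, 63.6%, 60.9% and 58.5% had the same sign. It was 89.5% for fexofenadine and for metolachlor OA, with 58.3% and 56.6% over all genes, and 82.7% for cis-nonachlordane, with 57.2%. The lowest shares were 75.2% for 3,4-dichlorophenyl isocyanate, 74.4% for fipronil carboxamide and 72.2% for 2-tert-butyl-4-methoxyphenol, with 55.3%, 54.5% and 54.4% over all genes. These shares are descriptions, since genes are not independent of each other.

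Averaged over the 10 chemicals, 125 of the 133 genes had the sign seen with hydrochlorothiazide, and 57 had it in each of the 10. The share of all genes that did so is not given, so these 2 numbers describe the 133 genes only. In gabapentin, with 1150 genes called (11.9%), 94 of the 133 were called in the same direction, which is 70.7% of the 133 and 8.17% of the gabapentin calls. In 2-tert-butyl-4-methoxyphenol, with 2018 called (20.9%), 62 were called in the same and 11 in the opposite direction. These chemicals had the most genes called of the 10.

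Among the chemicals with fewer calls, 35 of the 133 were called alike in cis-nonachlordane, or 26.3% of the 133 and 17.9% of its 195 calls (2.02%). In 1(2H)-phthalazinone the number was 29, or 21.8% of the 133 and 19.0% of its 153 calls (1.59%). In metolachlor OA it was 21, or 15.8% and 42.9% of its 49 calls (0.508%), so a large part of the few genes called there belonged to the 133. The same held for metribuzin-DA, with 12 of its 37 calls (0.383%), and for cetirizine hydrochloride, with 9 of its 23 calls (0.238%). In fipronil carboxamide, with 504 calls (5.22%), 34 of the 133 were called in the direction of hydrochlorothiazide and 6 in the opposite one. In 3,4-dichlorophenyl isocyanate, with 495 calls (5.13%), 39 and 2 of the 133 were. For fexofenadine edgeR called 0 genes (0%) in this fit, with an unadjusted p under 0.05 for 572, and DESeq2 was not run on this comparison. In the same fit hydrochlorothiazide itself had 91 genes called (0.943%), among them 76 of the 133, or 57.1%. The rest of the 133 were thus not called for hydrochlorothiazide in this fit. The sulfone, which shares its DMSO libraries, had 644 genes called (6.67%). With the sulfone 133 of the 133 genes had the sign seen with hydrochlorothiazide, beside 73.0% of all genes, and 94 were called alike. The shared DMSO libraries enter both sides of that comparison. Of the 133 genes, 109 were called in the same direction in at least 1 of the 10 chemicals and 24 in none. The matching share of all genes is not given, so this number cannot be read as particular to the 133. In 2-tert-butyl-4-methoxyphenol alone 2018 genes (20.9%) were called. The 133 genes were also abundant, with a median of 214 CPM in either direction against 39.9 CPM over all genes.

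**Figure D4:**
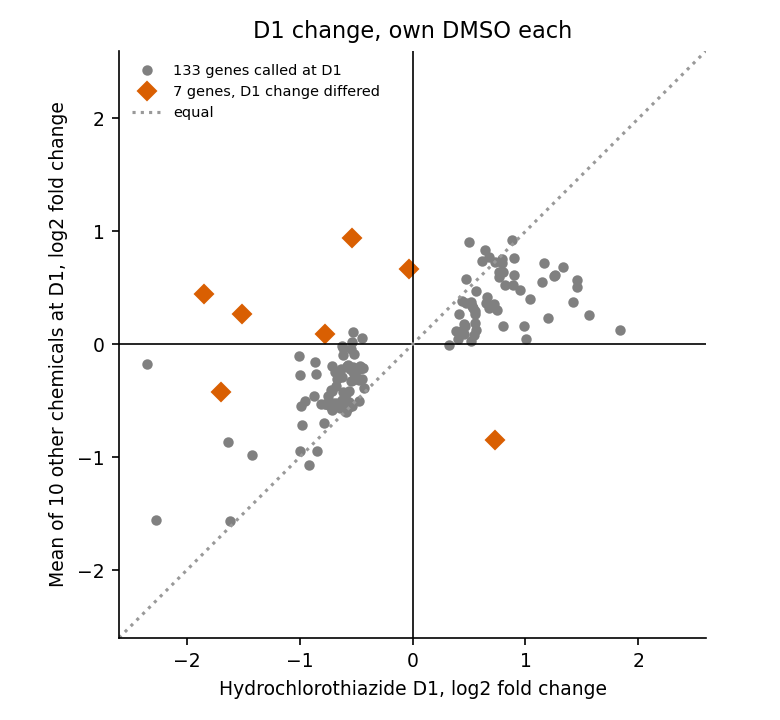
Log2 fold change at D1 against DMSO for hydrochlorothiazide (x axis) and averaged over the 10 chemicals of the other control sets (y axis), each chemical against its own DMSO libraries. Grey points are the 133 genes called at D1 and orange diamonds the 7 genes whose change differed between the axes. The dotted line marks equal change. Of the 133 genes 125 lie in the upper right or lower left quadrant, and the share of all genes that does so is not given.

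Whether the D1 change with hydrochlorothiazide differed from the mean of the same change over the 10 chemicals was tested as an interaction in that fit. It differed in 7 of 9649 genes (0.0725%), of which 1 was higher (0.0104%) and 6 were lower (0.0622%) with hydrochlorothiazide, and the number was 4 without D1 replicate C and also without DMSO replicate C. Of the 4 genes named for D1 against DMSO only Rsub_12849 was among them, with a difference of −1.27 ± 0.201 on the log2 scale (adjusted p = 0.000101). For Rsub_09261 the difference was −0.72 ± 0.487 (adjusted p = 0.79), and the gene changed by −1.56 in the mean of the 10 and was called lower in 5 of them. For Rsub_05674 it was 0.65 ± 0.279 (adjusted p = 0.62), with 4 of the 10 called higher, and for Rsub_09319 it was 0.96 ± 0.399 (adjusted p = 0.594), with 0 of the 10 called. In this fit the rise of Rsub_09319 with hydrochlorothiazide itself, 1.20 ± 0.375, had an adjusted p of 0.107. In the sulfone, which is not among the 10, the 4 genes were called in the same direction at D1. The changes there were 1.31 for Rsub_09319 (adjusted p = 0.0193) and 0.85 for Rsub_05674 (0.0385). They were −1.19 for Rsub_09261 (0.0468) and −0.57 for Rsub_12849 (0.0274). Both chemicals share their DMSO libraries, so these calls are not independent.

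Of these 4 genes Rsub_12849 had the widest range over the chemicals. It was called lower at D1 in 5 of the 10, with log2 fold changes of −1.79 ± 0.284 in gabapentin, −1.33 ± 0.153 in metolachlor OA, −1.08 ± 0.176 in fipronil carboxamide, −0.77 ± 0.175 in cetirizine hydrochloride and −0.69 ± 0.149 in cis-nonachlordane. It was called higher in 2-tert-butyl-4-methoxyphenol, by 1.85 ± 0.162. Its DMSO level differed between the control sets, with means of 37.4, 131, 183, 179, 623 and 658 CPM, so a given fold change stands for very different changes in CPM. Set against single chemicals, the change with hydrochlorothiazide differed by −2.04 ± 0.253 from metribuzin-DA (adjusted p = 3.31e-07) and by −1.70 ± 0.303 from 1(2H)-phthalazinone (adjusted p = 0.00522). It differed by −1.60 ± 0.240 from 3,4-dichlorophenyl isocyanate (adjusted p = 1.63e-05) and by −3.55 ± 0.248 from 2-tert-butyl-4-methoxyphenol (adjusted p = 3.3e-18). From the other 6 the difference, between −1.02 and 0.09, did not pass the threshold. These adjusted p-values were computed within each pair over all genes, of which 0.0207%, 0.0415%, 0.715% and 8.53% were called in the 4 pairs in the order given.

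**Figure D5:**
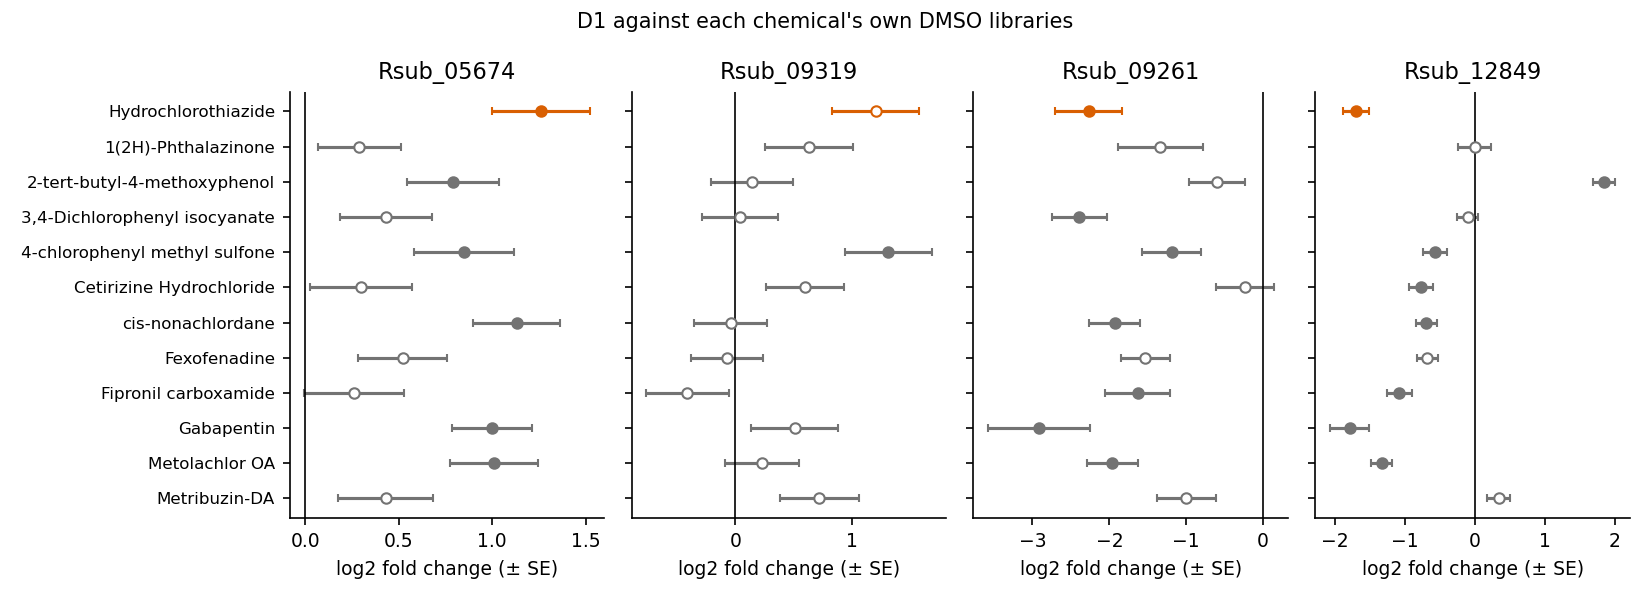
Log2 fold change at D1 against each chemical's own DMSO libraries, with standard errors, for the 4 genes named for D1; filled points passed an adjusted p of 0.05 in the fit of all chemicals, hydrochlorothiazide is orange, and 4-chlorophenyl methyl sulfone shares its DMSO libraries. Rsub_12849 runs from −1.79 in gabapentin to 1.85 in 2-tert-butyl-4-methoxyphenol, while Rsub_09261 lies below 0 and Rsub_05674 above 0 in all 12 chemicals.

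Of the other 6 genes with a different D1 change, Rsub_05922 changed at D1 with hydrochlorothiazide and was called in 0 of the 10 chemicals. It held 7.81, 19.6 and 12.2 CPM at D1, from 7, 20 and 14 counts, and 31.5, 41.1 and 41.9 CPM in DMSO, with no overlap. The level means of D2 to D7 lay between 20.8 and 32.4 CPM, below the DMSO mean of 38.2 CPM, and none was called. At D7 the libraries held 14.2 to 24.8 CPM, below each DMSO library and overlapping D1. In the fit of all chemicals its DMSO mean was 39.1 CPM, and those of the other control sets were 23.5 to 34.8 CPM. The change was −1.51 ± 0.342 in the fit of the 24 libraries (adjusted p = 0.00949), while in the 10 chemicals it ran from −0.21 to 0.57, and the interaction was −1.78 ± 0.362 (adjusted p = 0.0139). The interaction missed the threshold without any 1 of D1 replicates A and C and DMSO replicates B and C (adjusted p = 0.209, 0.121, 0.0686 and 0.105), at differences between −1.74 and −1.55.

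Rsub_03380 held 496, 495 and 413 CPM at D1 and 711, 831 and 862 CPM in DMSO, again with no overlap. It fell by 0.78 ± 0.142 on the log2 scale (adjusted p = 0.00156), while the mean change of the 10 chemicals was 0.09, and the interaction was −0.87 ± 0.185 (adjusted p = 0.0206). D2 to D7 held 453 to 752 CPM, with level means of 544 to 633 CPM. Its interaction missed the threshold without any single D1 library of hydrochlorothiazide (adjusted p = 0.0549, 0.0666 and 0.236), without DMSO replicate B or C (0.104 and 0.169), and with fipronil carboxamide left out of the mean (0.0585).

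Rsub_11220 was the 1 gene with a higher change. It held 380, 460 and 347 CPM at D1 and 242, 242 and 229 CPM in DMSO, and 295 to 398 CPM in the libraries of D2 to D7, all of which were above DMSO. The rise at D1 was 0.73 ± 0.124 (adjusted p = 0.000572), and the level means of D2 to D7 lay between 332 and 371 CPM. The gene was also called higher at D3, D4 and D6 (adjusted p = 0.00618, 0.021 and 0.0421). The interaction of 1.58 ± 0.189 (adjusted p = 1.11e-07) stood beside a fall of the gene in 2 of the 10 chemicals, with log2 fold changes of −5.68 in 2-tert-butyl-4-methoxyphenol and −2.47 in 3,4-dichlorophenyl isocyanate. It was 1.05 (adjusted p = 0.00313) with the former left out of the mean, and a mean without both was not tested. Set against single chemicals, the change differed from these 2, from 1(2H)-phthalazinone (adjusted p = 0.015) and from fipronil carboxamide (0.0023). The threshold was missed against gabapentin (0.16) and cis-nonachlordane (0.0673). It was also missed against metribuzin-DA, cetirizine hydrochloride, fexofenadine and metolachlor OA (0.836 to 0.977).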

How the data were processed

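Raw counts per gene were deposited by the authors in 1 table per chemical. The submitters' processing notes name featureCounts 2.0.6, SAMtools 1.15.1, STAR 2.7.10a and fastp 0.23.2. What the sources used here do not give is the genome build, annotation, strand setting and any collapsing by molecular identifier, without which counts include PCR copies.

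The count table of hydrochlorothiazide (24 libraries) was analysed with edgeR 4.0.16 in R 4.3.3: filterByExpr, TMM scaling, 1 coefficient per group, glmQLFit and glmQLFTest, Benjamini-Hochberg adjustment over all genes tested and a threshold of 0.05. The sulfone comparison used the 45 libraries of the control set, and the comparison with other chemicals the 54 D1 and DMSO libraries. A standard error is the size of the log2 fold change over the root of its F, and CPM use TMM-scaled totals. Library distance is the root mean square difference of log2 CPM (prior count 2). Scripts were tested on simulated data. Alternatives were RLE scaling, other filters, DESeq2 1.42.0, the replicate letter as a block and leaving out single libraries.

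Named genes were the 2 largest rises and 2 largest falls in each of 3 comparisons, D1 against DMSO, the mean of the levels against DMSO, and D1 against D2 to D7. They had to be called (for D1 against DMSO also in the test over all 7 levels at once), to average at least 10 counts and to show no overlap between the libraries compared. The genes with a different D1 change are all those called in that test. The comparisons and rules were chosen with earlier results of these data known. No 2 libraries of a group agreed within sampling noise (chi-square per degree of freedom 1.97 to 3.89).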

Additional observations from a re-analysis of the deposited data

Results flagged for a closer look

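The D1 change with hydrochlorothiazide differed from the mean of the 10 chemicals of the other control sets in 7 genes, by an interaction term in edgeR's quasi-likelihood test. The log2 difference was 1.58 for Rsub_11220, −1.27 for Rsub_12849, −1.78 for Rsub_05922 and −0.87 for Rsub_03380, which are described above.

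The other 3 genes had wide ranges over the 10 chemicals. Rsub_07138 differed by −0.70 ± 0.110 (adjusted p = 0.000101), where its change with hydrochlorothiazide was −0.03 and that in the 10 chemicals ran from −0.03 to 3.17, with 6 of them called higher. With 2-tert-butyl-4-methoxyphenol left out of the mean the difference was −0.42 (adjusted p = 0.35). Rsub_01749 differed by −1.48 ± 0.309 (adjusted p = 0.0174), with a change of −0.54 that was itself not called (adjusted p = 0.442) against a range of −1.19 to 5.81. It was −0.94 (adjusted p = 0.659) without that chemical and −1.03 (adjusted p = 0.348) without fipronil carboxamide, and its call was lost in 6 of 21 alternatives.

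Rsub_05085 differed by −2.29 ± 0.385 (adjusted p = 0.000341). It held 4.46, 7.86 and 5.21 CPM at D1, from 4 to 8 counts, and 23.1, 27.0 and 14.6 CPM in DMSO, a fall of 1.84 ± 0.458 (adjusted p = 0.0243). Among the 10 chemicals it was called higher in 2-tert-butyl-4-methoxyphenol (4.83) and 3,4-dichlorophenyl isocyanate (2.13), and lower in fipronil carboxamide (−1.92) and metolachlor OA (−0.97). In the sulfone, which shares the DMSO libraries, the change was −1.84 ± 0.361 (adjusted p = 0.00053).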

How the results depend on the processing

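Scaling by RLE, or keeping genes with 10 or more counts on average, left each of the 20 counts of genes within 1.5 times its value. No filter on low counts gave 316 genes over all levels, 223, 74, 119, 118, 77, 67 and 14 from D1 to D7, 183 for the mean of the levels, 155 among the levels, 2, 2, 2 and 3 for D2, D3, D6 and D7 against the other levels, and 123 against the sulfone at D1. DESeq2 gave 210 over all levels, 203, 56, 93, 88, 50 and 46 from D1 to D6, 113 among the levels, 1 for D7 against the other levels, 58 against the sulfone at D1 and 19 for the interaction. The cause of these larger numbers was not tested.

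The replicate letter as a replicate block gave 486 genes over all levels, 386, 114, 217, 238, 179, 128 and 25 from D1 to D7, 343 for the mean of the levels, 362 for D1 against D2 to D7, 266 among the levels, 17, 2 and 11 for D2, D3 and D7 against the other levels, and 174 against the sulfone at D1. Deviations of same-lettered libraries correlated at −0.0175 to 0.222, over 0.1 in 33 of 84 pairs. Their mean was 0.0867, and 19 of 24 libraries were closest to their own letter. The mean for libraries of different letters was −0.0432. Deviations were taken from the mean of each group, so that second mean follows largely from the first and is no separate evidence. Libraries of a letter thus shared part of their deviations, but the labels do not say what a letter stands for. The counts in the sections above leave the letter out and would be larger with it as a block in the comparisons just listed.

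Leaving out 1 library gave 24 to 140 genes over all levels (lowest without D1 replicate B, highest without D5 A), 47 to 150 at D1, 0 to 23 at D2, 4 to 58 at D3, 0 to 37 at D4, 0 to 47 at D5, 0 to 38 at D6 and 0 to 1 at D7. The range was 5 to 146 for the mean of the levels, 58 to 184 for D1 against D2 to D7, 7 to 62 among the levels, 0 to 1 for D4 and for D7 against the others, 8 to 54 and 2425 to 2448 against the sulfone at D1 and over the levels, and 4 to 8 for the interaction. With 1 of the 10 chemicals left out of the mean the interaction gave 5 to 10 genes. No named gene reversed in 420 repeats, and 30 lost the call. Totals of 831298 to 1188633 counts and 3 libraries per group limit what could be called, so a gene that was not called is not shown to be unchanged.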
